A study of Homo sapiens with 12 samples.

Results

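The first 8 h without transcription were compared between cells with hairpins against ALKBH5 and cells with a non-targeting hairpin. For each gene the quantity was the difference of 2 changes, log2(8 h / 0 h) in the knockdown lines minus log2(8 h / 0 h) in the shNS replicates. Each change was first centred on the median gene of its line, so a positive difference means that an RNA kept more of its 0 h signal in knockdown cells than the typical RNA of those cells, relative to the same measure in shNS cells. The members are the 7485 of 9529 genes in the table whose 0 h signal was at least 10 in all 4 libraries taken at 0 h. The spike-in rows were left out. The 2 genes just inside the limit had lowest 0 h signals of 10.003 and 10.005 and differences of 0.53 and 0.43 on the log2 scale. The 2 just outside had lowest signals of 9.999 and 9.995 and differences of 0.08 and -0.44.

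The cells were NOMO-1, a human line established from a monocytic form of acute myeloid leukaemia. The knockdown groups (shALKBH5, at 0 and 8 h) each held 2 libraries, 1 from each of 2 hairpin lines that the table calls D and E. The shNS groups at the same times each held replicates 1 and 2. All cells, controls included, had been transduced with a lentivirus, selected with puromycin and given actinomycin D. The titles, which were followed here, give ALKBH5 hairpins and actinomycin D, but the text of the treatment protocol speaks of FTO virus and of CS1 and CS2. The letters could not be matched to the hairpin numbers of the titles. Separate cultures are not stated for the shNS replicates, so the p-values may measure technical spread only.

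ALKBH5 is a nuclear enzyme that removes N6-methyladenosine (m6A) from RNA. The mark is laid on nascent RNA by a methyltransferase complex around METTL3 and METTL14, and it is read by proteins such as YTHDF2, which brings mRNAs to deadenylation and decay, and the IGF2BP proteins, which stabilise them. Actinomycin D stops transcription, so what remains of an RNA afterwards reflects how it is lost.

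The typical RNA lost more of its signal in knockdown cells. At 8 h the median member kept 22.6% and 32.4% of its 0 h signal in lines D and E, against 40.5% and 40.0% in shNS replicates 1 and 2. The deposited signal holds the spike-in transcripts at nearly the same median in every library, 29.9 to 33.0 in the knockdown libraries and 31.9 to 33.1 in the shNS libraries at 0 and 8 h. Without the centring the median difference was -0.53 on the log2 scale, and with it 0.04. Everything below is on the centred scale unless the deposited scale is named. Fewer cells and less RNA per cell cannot be told apart in such bulk libraries. Of 10 markers of monocytic leukaemia 6 were in the table, CD33, SPI1, CD68, CEBPA and LYZ among the members and ITGAM below the limit. No erythroid, epithelial, megakaryocytic or fibroblast marker was in the table.

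No member passed the test. With limma on the log2 signal and Benjamini-Hochberg adjustment over all 9529 genes, 0 members were higher and 0 lower at an adjusted p under 0.05, and the share called over the table was 0% in each direction. At an unadjusted p under 0.05 there were 43 higher and 24 lower members, 67 of 7485, a smaller share than the threshold of 0.05 itself. This fit takes the 0 h and 8 h libraries as unpaired. The 0 h and 8 h libraries of a line deviated together, with correlations over members of 0.761 for the knockdown lines and 0.293 for the shNS replicates. In the unpaired fit that shared deviation stays in the error. With the line as a block, which sets the change of each line against those of the others, 1 member was called lower, SGK1, and 0 higher. Over the table that was 0.0105% lower and 0% higher. At an unadjusted p under 0.05 this fit had 548 higher and 383 lower members, 931 of 7485, a larger share than 0.05. Members are not independent, and neither share was tested. The median SE of the block fit over members was 0.159, against 0.338 in the unpaired fit. SEs and unadjusted p-values below are from the unpaired fit unless the block is named. Line D alone against shNS called 89 members higher and 70 lower, with 1.55% and 0.997% called over the table, and line E alone 8 and 7, with 0.115% and 0.136%, on the assumption that a lone library varies like the other groups. The genes described below other than SGK1 therefore did not pass, and their values are given as measurements.

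The spread between the hairpin lines lay between the spreads of line E and of line D against shNS. Over members, line D minus line E had an SD of 0.380 on the log2 scale and shNS replicate 1 minus replicate 2 had 0.158. Line D minus shNS replicates 1 and 2 had SDs of 0.418 and 0.424, and line E minus the same replicates 0.274 and 0.259. The difference of the means of knockdown and shNS, which averages 2 lines on each side, had 0.286. The central 90% of the differences lay between -0.41 and 0.48. Only 16 members lay above 1 and 16 below -1. Both knockdown lines stood above both shNS replicates for 2048 members, 27.4%, and below both for 1532, 20.5%. Over all 9529 genes the shares were 28.1% and 19.3%. For 1425 members, 19.0%, line D stood above and line E below both replicates, and for 630, 8.42%, the reverse held. Line D minus shNS replicate 1 and line E minus shNS replicate 2 share no library, and across the 7485 members, which are not independent replicates, they had a Pearson correlation of 0.393 and the same sign for 60.9%. With the replicates exchanged these were 0.309 and 56.4%.

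**Figure D1:**
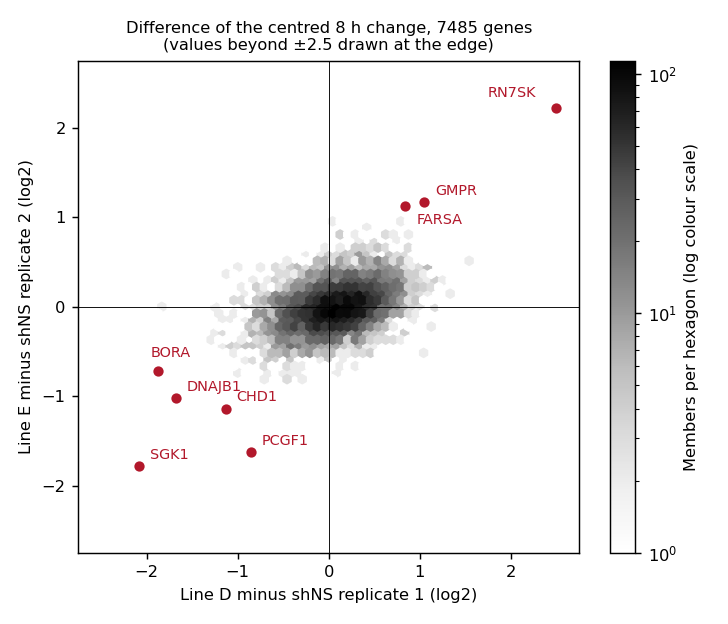
Difference of the centred 8 h change for the 7485 members, line D minus shNS replicate 1 on the horizontal axis and line E minus shNS replicate 2 on the vertical axis, both log2; shading gives members per hexagon on a log colour scale and red points are named genes. Most members lie within 1 log2 unit of 0 on both axes, while SGK1, DNAJB1, CHD1, PCGF1 and BORA lie low and RN7SK, GMPR and FARSA high on both.

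ALKBH5, the targeted gene, had a lower signal in the knockdown lines before the drug and a smaller share of it left afterwards. Its signal at 0 h was 25.4 and 21.2 in lines D and E, against 84.3 and 78.6 in the shNS replicates. At 8 h it was 1.52 and 4.29 in lines D and E, against 35.9 and 32.1. The share left was thus 5.97% and 20.2% in lines D and E, against 42.5% and 40.9% in shNS. The difference was -1.35 (SE 0.42, unadjusted p 0.0103) without overlap between the groups, and the adjusted p with the block was 0.338. The 8 h signal of line D was near the lowest gene signal of that library, 0.753. Line D alone gave -1.97 and line E alone -0.73.

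SGK1, a serum and glucocorticoid inducible kinase whose mRNA is short-lived in many cells, kept a smaller share of its signal in both knockdown lines. It was the one member called with the block and was not called without it. Its signal was 54.1 and 26.1 at 0 h in lines D and E, against 27.5 and 28.5 in shNS replicates 1 and 2. At 8 h it was 2.83 and 2.22 in lines D and E, against 10.9 and 10.3. The 8 h signals of the knockdown lines were thus low, under 3, as were those of 886 and 602 members in lines D and E. Line D began at a higher level than the other 3 lines, and both knockdown lines ended below both replicates. Lines D and E kept 5.22% and 8.48% of the 0 h signal, while the shNS replicates kept 39.6% and 36.0%. The difference of the centred change was -1.93, which is 3.82-fold lower relative to the median member of each line. Its SE with the block was 0.148 and its adjusted p 0.0346 (limma, Benjamini-Hochberg), whereas without the block the SE was 0.52 and the unadjusted p 0.00435. With the block on the deposited scale 0 members were called (lowest adjusted p 0.0752, limma, Benjamini-Hochberg). Removing the trend with GC content from each line left SGK1 at -1.89 with an adjusted p of 0.0818 with the block. Line D alone gave -2.02 and line E alone -1.84. At 12 h the share left was 4.90% and 3.76% in lines D and E, against 18.1% and 16.3% in the shNS replicates. The gene lies on the minus strand of chromosome 6 at 134169246 to 134318112 (GRCh38, GENCODE release 29).

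ZFP36 encodes tristetraprolin, which binds AU-rich elements and brings mRNAs to deadenylation, and its own mRNA carries such elements. Its share left was 13.8% and 22.5% in lines D and E, against 67.8% and 47.6% in the shNS replicates, a difference of -1.12 (SE 0.34, unadjusted p 0.00857). The groups did not overlap, although the shNS replicates lay 0.49 apart on the centred scale, at 0.74 and 0.25. The 7-base core TATTTAT was searched on the transcript strand of the 3′ UTR of 1 GENCODE transcript per gene, and 30.4% of 7010 such 3′ UTRs hold it. That of SGK1 holds 1 match and that of ZFP36 holds 3. The windows are shown because these elements are the best known decay signals in mRNAs of this kind, with the core in capitals.
SGK1, chr6:134169478-134169504, minus strand: aaatgggcatTATTTATgttttttttt
ZFP36, chr19:39409182-39409208, plus strand: atgggcccttTATTTATgacgacttta
ZFP36, chr19:39409197-39409223, plus strand: atgacgacttTATTTATtctaatatga
ZFP36, chr19:39409222-39409248, plus strand: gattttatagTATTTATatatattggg
A match is a run of letters and not a measured site. Over members, the median difference was -0.01 for the 2133 with the core and 0.05 for the 4877 without it, both small beside the SD of 0.286.

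SGK1 and ZFP36 belong to a list of immediate early genes, which cells switch on within minutes of a stimulus and whose mRNAs usually decay fast. The table held 19 of its genes, of which 14 were members, and both knockdown lines stood below both shNS replicates for 10 of them, 71.4%, and above for 2, 14.3%, against 20.5% and 27.4% over all members. Its median difference was -0.54 (0.04 over all members), and -1.11 on the deposited scale. Its median centred change was 0.28 and 0.20 in shNS replicates 1 and 2, and -0.45 and -0.14 in lines D and E. As a set, its members were thus lost more slowly than the median member in shNS cells over these 8 h. IER2, a nuclear immediate early protein, kept 17.8% and 41.0% in lines D and E, against 70.3% and 63.1% in shNS, a difference of -0.73. For JUNB, a subunit of AP-1, the difference was -0.77, with centred changes of -0.75 and -0.17 in lines D and E against 0.35 and 0.27. KLF10, a zinc finger repressor induced by TGF-beta, had -0.63. MCL1, a BCL2 family survival protein, kept 15.6% and 44.8%, against 67.6% and 68.9%, a difference of -0.80 that was -1.30 in line D alone and -0.29 in line E alone. The members above were FOSL2, another AP-1 subunit, at 0.79, and MYC, at 0.46. JUNB, KLF10 and FOSL2 were named after their values were seen.

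The heat shock list had 29 members, of which 8 stood below without overlap and 2 above, 27.6% and 6.9% against 20.5% and 27.4% over all members, with a median of -0.07. DNAJB1, the cytosolic HSP40 co-chaperone, kept 4.73% and 8.54% in lines D and E, against 27.1% and 21.3% in the shNS replicates. Its difference was -1.35 (SE 0.37, unadjusted p 0.00467; adjusted p 0.182 with the block). HSPA1A, the inducible HSP70, kept 11.1% and 33.4%, against 87.3% and 81.3%, a difference of -1.55. Its near-identical copy HSPA1B shares reads with it, so that value is uncertain. HSPA8, the constitutive HSC70, had 0 h signals of 1753 and 536 in lines D and E, against 505 and 483 in shNS. At 8 h it was 186 and 116, against 245 and 219. Its difference of -1.05 thus includes a 0 h level that was high in line D.

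**Figure D2:**
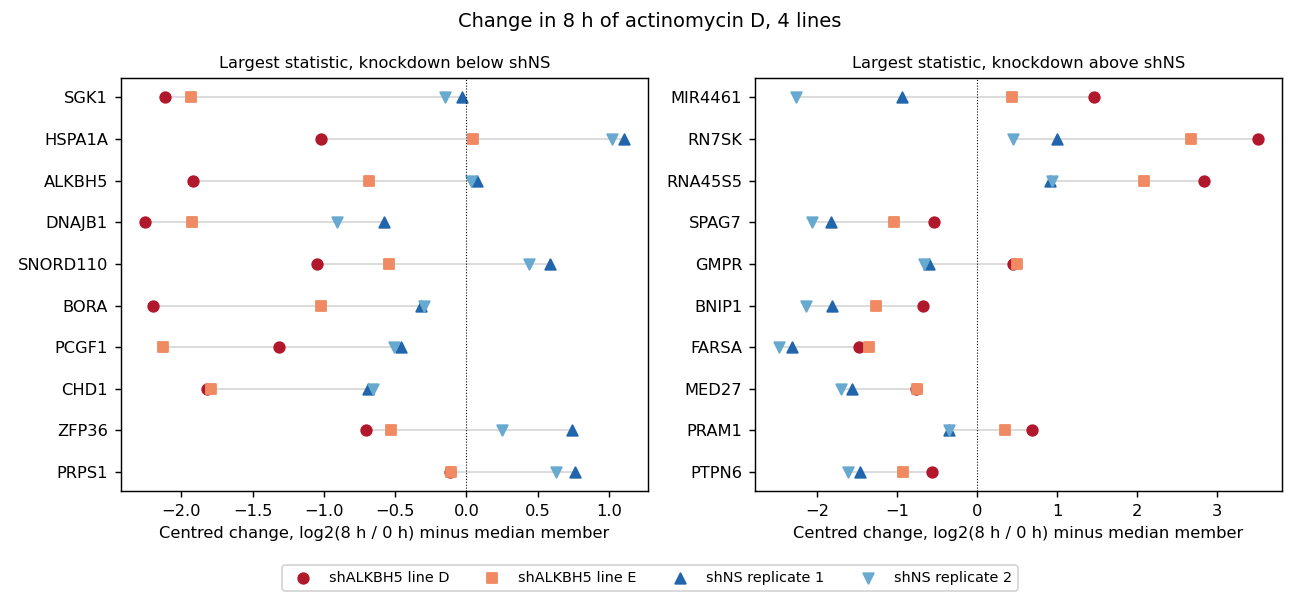
Centred change in 8 h of actinomycin D, log2(8 h / 0 h) minus the median member of the line, for the 10 members with the largest negative statistic (left) and the 10 with the largest positive one (right); points are the 2 knockdown lines and the 2 shNS replicates. For SGK1 the knockdown lines sit at -2.11 and -1.93 and the shNS replicates at -0.03 and -0.15; the groups do not overlap in any row, a condition of the choice.

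The other mRNAs with a low knockdown value were named by the size of the statistic among members whose groups do not overlap, so their separation is a condition of the choice. CHD1, a chromatin remodeller of active genes, kept 6.40% and 9.36% in lines D and E, against 25.1% and 25.4% in shNS, a difference of -1.13 on which the lines lay close, at -1.15 and -1.12. For PRPS1, a phosphoribosyl pyrophosphate synthetase, they were closer still, at -0.81 and -0.80, with 20.9% and 30.1% left, against 68.8% and 61.8%. BORA, an activator of Aurora A at mitotic entry, had -1.30 but its lines lay apart, D at -1.89 and E at -0.71. PCGF1, a subunit of a Polycomb complex, had -1.24 with the order of the lines exchanged, D at -0.83 and E at -1.64. SNORD110, a small nucleolar RNA inside an intron of NOP56, had -1.30, and reads of its host transcript cannot be told apart from its own.

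GMPR, a guanosine monophosphate reductase, had one of the most even differences in the other direction. Its signal was 96.3 and 112 at 0 h in lines D and E, against 58.7 and 56.8 in the shNS replicates. At 8 h it was 29.6 and 51.4, against 15.6 and 14.3. The share left was 30.8% and 45.8% in lines D and E, against 26.6% and 25.2%, so that it was higher in knockdown cells on the deposited scale too (0.54). The centred difference was 1.11 (SE 0.28, unadjusted p 0.00294; adjusted p 0.182 with the block), 1.08 for line D and 1.14 for line E. At 12 h it kept 10.6% and 13.6%, against 6.28% and 6.38%. FARSA, the catalytic subunit of phenylalanyl-tRNA synthetase, kept 8.15% and 12.7%, against 8.14% and 7.16%, a difference of 0.99 that was 0.93 for line D and 1.05 for line E. In line D its share left was the same as in shNS replicate 1, and the centred difference there arises from the larger fall of the median member of line D. MED27, a Mediator subunit, had 0.87, with 0.87 and 0.88 in lines D and E.

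SPAG7 (1.16), BNIP1 (1.01), PRAM1 (0.86) and PTPN6 (0.80) were the other protein-coding genes among the 10 named on that side, which were chosen by the size of the statistic and not of the difference. CCDC12, named after its values were seen, had a larger difference of 1.34, with its lines at -0.88 and -2.40 against -3.22 and -2.74 in shNS. PTPN6 is the SHP-1 phosphatase of blood cells, PRAM1 an adaptor of myeloid cells and BNIP1 a SNARE of the endoplasmic reticulum. These 4 genes had deposited-scale differences of 0.59, 0.43, 0.29 and 0.23, above 0 as well.

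**Figure D3:**
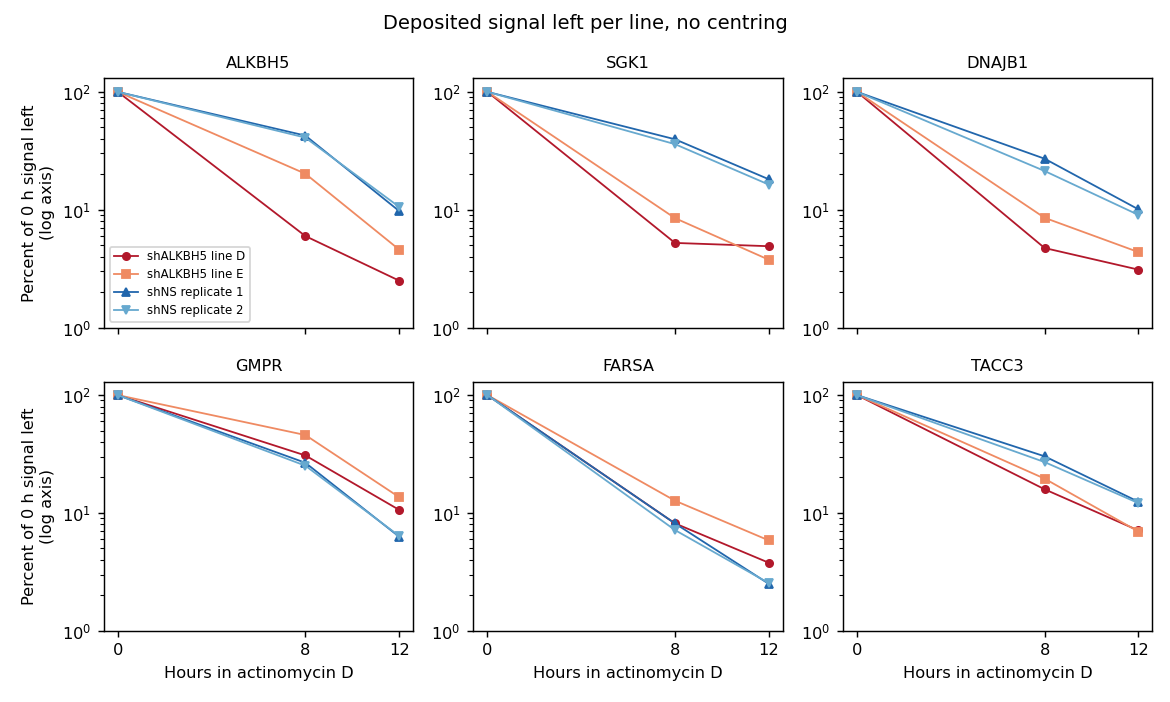
Percent of the 0 h signal left at 0, 8 and 12 h in actinomycin D on a log axis, deposited signal without centring, for the 2 knockdown lines and the 2 shNS replicates. The knockdown lines lie below both shNS replicates at 8 and 12 h for ALKBH5, SGK1, DNAJB1 and TACC3, and above both at 8 and 12 h for GMPR; for FARSA line D meets shNS replicate 1 at 8 h.

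The highest differences belonged to noncoding RNAs, most of them products of RNA polymerases I and III. RN7SK, the 7SK RNA that restrains the elongation factor P-TEFb, had a signal of 61.9 and 58.9 at 0 h in lines D and E, against 93.2 and 72.4 in shNS. At 8 h it was 160 and 122 in lines D and E, against 75.3 and 39.6. It thus stood at 259% and 206% of its 0 h signal in the knockdown lines, against 80.7% and 54.7%. Its difference was 2.37 (SE 0.50, unadjusted p 0.000918; adjusted p 0.182 with the block), which is 5.18-fold higher relative to the median member of each line. The ribosomal RNA precursor RNA45S5 stood at 162% and 138%, against 76.1% and 76.3%, a difference of 1.54. RNA28S5 and RNA18S5, named after their values were seen, had 1.43 and 1.34. For MIR4461 the difference was 2.55, but the shNS replicates kept 21.0% and 8.31% and lay 1.32 apart. The libraries were made from poly(A) RNA, and how much of such RNAs they carry over was not tested.

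RN7SL1 and RN7SL2, near-identical genes for the RNA of the signal recognition particle, had differences whose size depended on a single library. RN7SL1 had 94.3 and 110 at 0 h in lines D and E, and 1982 and 94.4 in shNS replicates 1 and 2. RN7SL2 had 109 and 143, and 3410 and 133. Their differences, 3.17 and 3.64, therefore carry the high 0 h value of shNS replicate 1, and without that replicate they were 1.33 and 1.69. Of the 7 noncoding RNA members on a list of abundant species, which includes both, 6 stood above without overlap, 85.7% against 27.4% over all members, RN7SL1 and RN7SL2 among them.

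The m6A machinery showed no common direction. Of 7 members of the methyltransferase complex 2 stood above and 2 below without overlap, 28.6% each way against 27.4% and 20.5% over all members, with a median of 0.04. METTL3, its catalytic subunit, kept 40.1% and 36.4% in lines D and E, against 41.1% and 42.6%, a centred difference of 0.44, with 0.77 for line D and 0.11 for line E, that became -0.13 on the deposited scale. METTL14, its partner, kept 12.3% and 15.5%, against 26.1% and 26.9%, at -0.37. WTAP, the regulatory subunit, kept 9.78% and 13.5%, against 24.7% and 22.8%, at -0.48 (SE 0.13 and adjusted p 0.338 with the block), with -0.45 and -0.50 in lines D and E. FTO, the other m6A demethylase, had 0.05 and overlapped.

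Among the m6A readers, 3 of 14 members stood above and 4 below, 21.4% and 28.6% against 27.4% and 20.5% over all members, and the median was -0.07. YTHDF2 kept 4.07% and 6.27% in lines D and E, against 9.49% and 8.89%, a difference of -0.29, and YTHDF1, named after its value was seen, also had -0.29. FXR2 was at 0.43, IGF2BP3 at 0.27 and ELAVL1, a stabilising protein of AU-rich mRNAs, at 0.26. IGF2BP2 had centred changes of 0.28 and 0.08 in lines D and E on either side of 0.22 and 0.23 in shNS.

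TACC3, a spindle protein reported as a target of ALKBH5 in leukaemia, did not stand apart once the median was taken out. Its signal was 118 and 86.3 at 0 h in lines D and E, against 82.0 and 77.1 in the shNS replicates. At 8 h it was 18.7 and 16.9, against 24.8 and 20.8. It kept 15.9% and 19.5%, against 30.2% and 27.0%, so that on the deposited scale the difference was -0.70, near the -0.53 of the median member. On the centred scale it was -0.13 (SE 0.37, unadjusted p 0.741), -0.02 for line D and -0.23 for line E, and the groups overlapped. Of 5 members on the list of reported targets, USP1, a deubiquitinase of the DNA damage response, stood below at -0.84 and MYC above at 0.46. MYC kept 2.31% and 2.27% in lines D and E, against 2.70% and 2.26%, and was at -0.11 on the deposited scale. KDM4C, a histone demethylase, had 0.14 and overlapped, and whether it is itself a target of ALKBH5 was not tested.

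The mitosis list leaned to low values. Of 57 members, 29 stood below without overlap, 50.9%, and 3 above, 5.3%, against 20.5% and 27.4% over all members. The median was -0.18, -0.75 on the deposited scale, and -0.19 after the trend with GC content was removed. The median centred change of the list was -0.97 in line E, below both shNS replicates at -0.70 and -0.75. In line D it was -0.68, slightly above both replicates. PLK4, the kinase of centriole duplication, had a difference of -0.76. NUF2, an outer kinetochore subunit, kept 14.4% and 21.8% in lines D and E, against 40.1% and 43.4%, at -0.66. CKAP5, a microtubule polymerase, stood above at 0.50. None of the 57 was called.

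Mitochondrial ribosomal protein mRNAs leaned to the other side, with 34 of 76 members above without overlap, 44.7%, and 12 below, 15.8%, against 27.4% and 20.5% over all members. Their median was 0.18, -0.39 on the deposited scale and 0.12 with the GC trend removed. MRPL17 had 0.68, MRPL2 0.64 and MRPS18A 0.62, and their shares left were 11.5% and 13.4%, 18.1% and 15.3%, and 11.8% and 20.1% in lines D and E. In shNS replicates 1 and 2 the 3 mRNAs kept 12.7% and 10.5%, 15.7% and 16.1%, and 16.3% and 13.6%. Cytoplasmic ribosomal protein mRNAs, which are among the most stable, were the contrast, with 0 of 82 above and 2 below, 0% and 2.4% against 27.4% and 20.5% over all members, and a median of 0.01. Their median centred changes in lines D and E, 1.41 and 0.82, enclosed those of both shNS replicates. Nuclear-encoded oxidative phosphorylation mRNAs likewise had 12 of 79 above, 15.2%, and 3 below, 3.8%, and a median of 0.02.

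Genes of leukaemia self-renewal had 8 of 15 members above without overlap and 2 below, 53.3% and 13.3% against 27.4% and 20.5% over all members. Their median was 0.17, -0.40 on the deposited scale and 0.06 with the GC trend removed. The median centred change was -0.26 in line D, above both shNS replicates at -0.65 and -0.62. In line E it was -0.62, level with shNS. HOXA11, a homeobox factor of the HOXA cluster, had the largest value at 0.99, with 26.6% and 20.8% left in lines D and E, against 18.1% and 17.2%. BMI1, a Polycomb subunit, was below at -0.37. Lysosomal enzymes and V-ATPase subunits had 11 of 40 above, 27.5% and thus close to the 27.4% over all members, and 2 below, 5.0% against 20.5%. Their median was 0.16, -0.42 on the deposited scale and 0.13 with the GC trend removed. The median centred change was 1.12 in line D but 0.82 in line E, below both shNS replicates at 0.85 and 0.86. NAGLU, which degrades heparan sulphate, had 0.65. Monocyte receptors and differentiation factors had 7 of 17 above and 1 below, 41.2% and 5.9% against the same shares. Their median of 0.16 was -0.41 on the deposited scale and 0.02 with the GC trend removed. The median centred change was 0.34 in line D but 0.15 in line E, below both shNS replicates at 0.29 and 0.28. CEBPE had 0.58 and SPI1, the myeloid master factor PU.1, had 0.48.

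Most glycolysis genes overlapped, with 3 of 20 above and 3 below, 15.0% each way, under the 27.4% and 20.5% over all members. SLC2A1, the glucose transporter GLUT1, kept 9.69% and 13.8% in lines D and E, against 28.8% and 31.3%, with differences of -0.80 for line D and -0.81 for line E. HK1, the first enzyme of the pathway, had 0.71 and LDHA, lactate dehydrogenase, 0.68. DNA replication genes had 5 of 45 above and 9 below, the share above being 11.1% against 27.4% over all members and the share below close to the 20.5% over all members. GMNN, the licensing inhibitor geminin, had -0.73 and its target CDT1 had 0.61. In the integrated stress list, ATF4, the transcription factor at its centre, kept 46.3% and 60.5%, against 113% and 110%, at -0.51, and its target TRIB3 had 0.52.

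**Figure D4:**
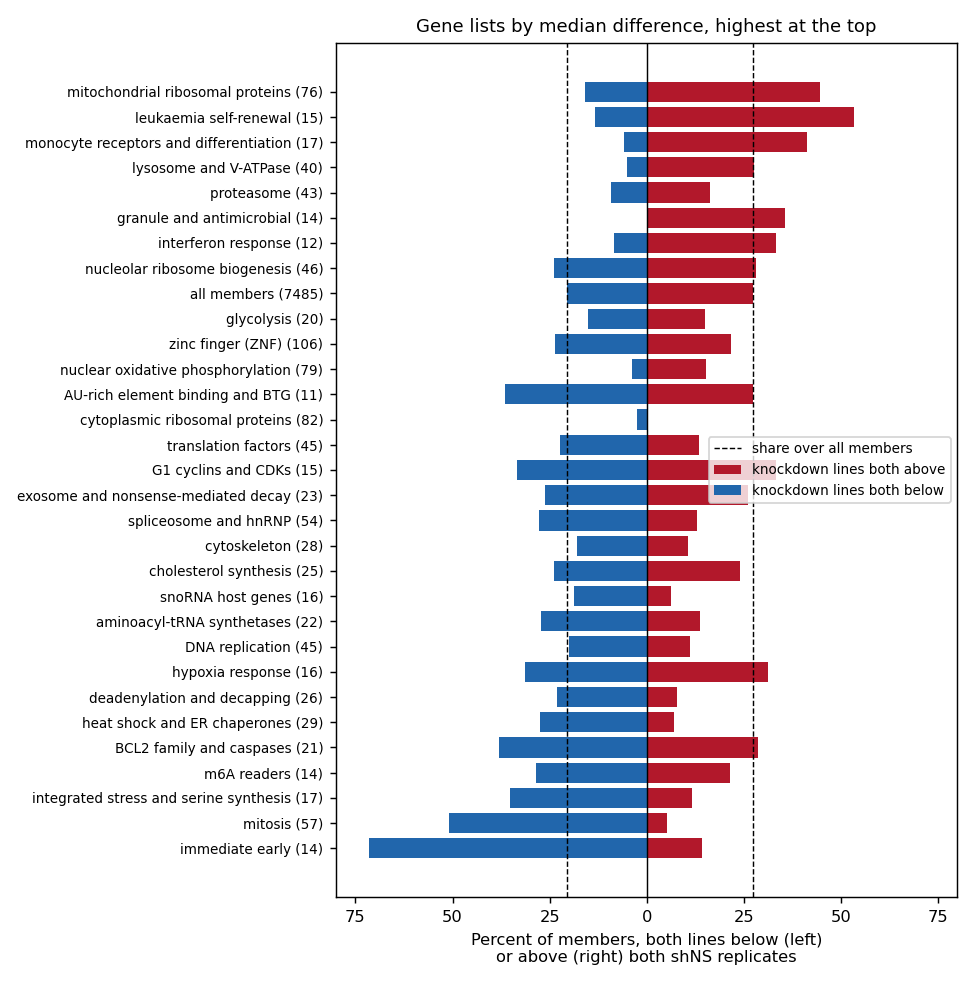
Percent of the members of each list with at least 10 members (number in brackets) for which both knockdown lines stood above (red, right) or below (blue, left) both shNS replicates on the centred scale; dashed lines give the shares over all members, 27.4% and 20.5%. Immediate early and mitosis genes have the widest bars to the left, with 71.4% and 50.9%, and leukaemia self-renewal genes the widest to the right, with 53.3%.

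Of 7 transcript features examined, GC content followed the difference most closely, and it was singled out after the values were seen. Over 7238 members with a GENCODE transcript the Spearman correlation of the difference with GC content was 0.494. It was 0.440 for line D minus shNS replicate 1 and 0.389 for line E minus shNS replicate 2. With the replicates exchanged it was 0.478 for line D minus shNS replicate 2 and 0.275 for line E minus shNS replicate 1. Members are not independent, and they share libraries. Among the 1753 members of lowest GC content of 7010 with a coding transcript, 44.4% stood below without overlap and 9.47% above, with a median difference of -0.14. Among the 1753 of highest GC content 4.05% stood below and 49.5% above, with a median of 0.19. The length of the 3′ UTR had a correlation of -0.13 and the number of exons 0.03. The 5-base core GGACT, a common form of the m6A motif, was in 57.9% of 7010 3′ UTRs, with a median difference of 0.04 with it and 0.04 without it. Within 4 equal classes of 3′ UTR length, shortest first, the median was 0.14, 0.07, 0.02 and 0.01 with the core, and 0.09, 0.01, -0.04 and -0.04 without it. The part of GC content in that gap was not tested. The Pumilio motif TGTANATA was in 27.1%, with medians of 0.00 and 0.05.

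GC content also moved with differences between libraries of the same group. The 0 h levels of shNS replicate 1 minus replicate 2 had a Spearman correlation with it of -0.448, and the 8 h changes of replicate 1 minus 2 had 0.196. For line D minus line E the 8 h changes had 0.280. The part of library preparation in the relation was not tested. Removing the trend of each line left 24 higher and 29 lower members at an unadjusted p under 0.05 and 0 called.

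**Figure D5:**
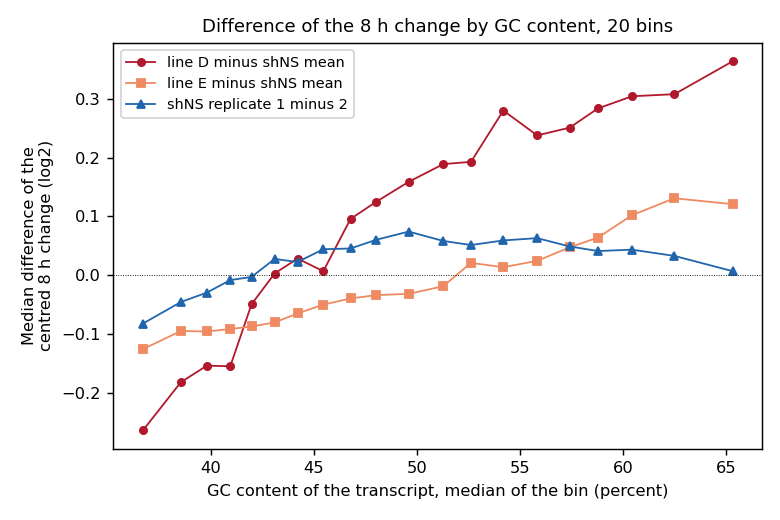
Median difference of the centred 8 h change (log2) in 20 bins of GC content of the transcript, for each knockdown line minus the shNS mean and for shNS replicate 1 minus 2. In the lowest bin line D lies at -0.26 and line E at -0.13, in the highest bin line D lies at 0.36 and line E at 0.12, and shNS replicate 1 minus 2 stays between -0.08 and 0.07.

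The ends of 4 coding regions show the contrast in composition, with the stop codon included and G or C at the last position of a codon in capitals. They were picked, after their values were seen, among the named genes of low and of high GC content. CHD1 and BORA, with 38.1% and 40.6% GC in their transcripts, stood low, and FARSA and PTPN6, with 61.4% and 58.6%, stood high.
CHD1, chr5:98856380-98856439, minus strand: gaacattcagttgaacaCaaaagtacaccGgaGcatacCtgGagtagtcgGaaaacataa
BORA, chr13:72755157-72755216, plus strand: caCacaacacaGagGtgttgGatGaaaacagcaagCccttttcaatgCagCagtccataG
FARSA, chr19:12922748-12922807, minus strand: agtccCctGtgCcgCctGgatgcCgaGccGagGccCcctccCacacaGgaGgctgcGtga
PTPN6, chr12:6960861-6960920, plus strand: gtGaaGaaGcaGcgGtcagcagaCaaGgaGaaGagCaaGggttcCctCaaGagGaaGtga
In these stretches CHD1 has G or C at 6 of 20 such positions and BORA at 9, against 14 in FARSA and 16 in PTPN6. SGK1, the lowest, has 44.2% GC, while ALKBH5, ZFP36 and HSPA1A, also low, have 54.9%, 57.3% and 59.7%.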

How the data were processed

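Stranded libraries of NOMO-1 poly(A) RNA were sequenced, per the labels' protocols. STAR, RSEM and the GRCh38 build come from the submitters' processing notes, without versions. What was deposited by the authors is a normalised signal for each gene symbol, whose unit before scaling is not stated. Counts are not given and no gene value is 0, so depth is unknown. The 8 libraries of 0 and 8 h were used of 12.

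Log2 signal was fitted without pseudocount in limma 3.58.1 (R 4.3.3, mean-variance trend, empirical Bayes) on all 9529 genes in 4 groups of 2. Each 8 h library was centred on the median member, and an adjusted p under 0.05 was called. The unpaired fit was tested on simulated data in which each library varied independently. That does not cover the replicate block. Tables were made with Python 3.11.15, pandas 2.3.3 and numpy 2.4.6, and figures with matplotlib 3.10.9. Coordinates and sequences are from GENCODE release 29, 1 transcript per gene.

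The numbers and letters of the columns were taken to pair 0 h with 8 h libraries. Their deviations correlated by 0.761 for the knockdown lines and 0.293 for the shNS replicates. The shNS deviations also followed GC content at both times, with Spearman correlations of -0.448 at 0 h and -0.294 at 8 h. Whether shNS libraries of the same number share a culture was not tested. Alternatives were pseudocounts of 0.1 and 1, all 12 libraries, no centring, other centring genes, members only, no filter, a 0 h signal of at least 50, limma without trend, the replicate block and each replicate left out. Equal spreads, GC trend removal, and the block with GC removal or on the deposited scale were added after the data were seen.

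Named genes were ALKBH5, FTO, METTL3, METTL14, WTAP, YTHDF2, IGF2BP2, TACC3, MYC and AXL where members, the 10 highest and 10 lowest called members, and up to 3 of smallest p per list. As none was called, the 10s were filled by the largest moderated statistic among members whose groups did not overlap. The members, lists and rules were chosen with earlier results of these data known. For 1 marker the values are not reported here.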

Additional observations from a re-analysis of the deposited data

Results flagged for a closer look

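The 2 hairpin lines lay on opposite sides of both shNS replicates for 1 named gene, IGF2BP2, and for the median of 22 of the 37 lists with at least 5 members. The difference between the lines was not tested, since each line has 1 library at each time. List medians were taken over the differences of the genes from each shNS replicate, a definition settled after the values were seen. Taken as differences of the list medians 18 lists were so placed, and relative to the same medians over all members 12 were. Over all members the medians were 0.09 and 0.12 for line D minus shNS replicates 1 and 2, and -0.02 and -0.00 for line E minus the same replicates. Values below are log2 differences from the mean of the shNS replicates.

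IGF2BP2, an m6A reader, was at 0.0545 for line D and -0.15 for line E. The methyltransferase complex was at 0.23 for line D and -0.18 for line E, the m6A readers at 0.0469 and -0.18, and the reported ALKBH5 targets at 0.10 and -0.23. Cytoplasmic ribosomal proteins were at 0.28 and -0.28, the widest such separation. Translation factors were at 0.23 and -0.19, aminoacyl-tRNA synthetases at 0.21 and -0.17, nucleolar ribosome biogenesis factors at 0.16 and -0.11, and snoRNA host genes at 0.17 and -0.19. The spliceosome and hnRNP list was at 0.20 and -0.14, the proteasome at 0.21 and -0.09, nuclear oxidative phosphorylation at 0.26 and -0.14, and the cytoskeleton at 0.17 and -0.25. Glycolysis was at 0.13 and -0.12, iron regulated mRNAs at 0.0294 and -0.21, the heat shock list at 0.0365 and -0.21, and the integrated stress list at 0.0159 and -0.23. The interferon response was at 0.24 and -0.05, G1 cyclins and CDKs at 0.11 and -0.01, DNA replication at 0.0084 and -0.08, and ZNF mRNAs at 0.13 and -0.08. NF-kB genes were at 0.28 for line D and 0.02 for line E, whose medians against the single replicates were below 0. Cholesterol synthesis alone had the reverse order, -0.20 for line D and 0.09 for line E.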

How the results depend on the processing

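No member was called under any alternative except the replicate block and the fits without a knockdown line. The replicate block called 0 higher and 1 lower member. Leaving out each replicate in turn gave 0 to 89 members called higher and 0 to 70 called lower. Without line D, so with line E alone, 8 were called higher and 7 lower, without line E 89 and 70, and without either shNS replicate 0. A lone library is assumed there to vary like the other groups. Both fits called 10 members in the same direction, SGK1, DNAJB1, GMPR, RN7SK, MIR4461, RN7SL1, RN7SL2, RNA45S5, RNA28S5 and RNA18S5, and they share the shNS libraries. On the deposited scale 0 were called, with 3 higher and 969 lower at an unadjusted p under 0.05. Estimates of 28 genes were recomputed 476 times and 8 changed sign. Leaving out the centring moves every gene by the same amount, the median member from 0.04 to -0.53. On the deposited scale, with and without the block, FTO was thus at -0.52, METTL3 at -0.13 and MYC at -0.11. With each replicate left out in turn FTO ranged from -0.0462 (without shNS replicate 2) to 0.142 (without shNS replicate 1), and IGF2BP2 from -0.150 (without line D) to 0.0545 (without line E). The cause of the changes with a replicate left out was not tested. Depth is unknown, and 8 h signals under 3 were held by 886 and 602 members in lines D and E, and by 358 and 522 in shNS replicates 1 and 2.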
